A study of Mus musculus with 18 samples.

Results

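Bone marrow-derived macrophages (BMDMs) of wild type mice loaded with oxidized LDL (Ox-LDL) were compared with BMDMs loaded with acetylated LDL (Ac-LDL), 3 libraries against 3. The libraries were paired by the ID number in the names of the count columns. It is read here as the animal, because the study used 3 mice per genotype, and no label says so. These are 6 of the 18 libraries of the series, and the comparison covers the 12290 of 31053 listed genes that passed a filter on low counts. With Ox-LDL, genes of the antioxidant response to the transcription factor NRF2, genes of heme and iron handling and the scavenger receptor Cd36 were higher. The fractalkine receptor Cx3cr1, the pattern recognition receptor Tlr2, the C1q chains of complement and a group of interferon-stimulated genes were lower. Most of these differences were less than 2-fold, and their number depended strongly on whether the mouse was a term in the fit. None of the called heme and iron genes or interferon-stimulated genes stayed called when each library was left out in turn.

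Macrophages take up both particles through scavenger receptors and become foam cells. Acetylated LDL is a chemically modified particle used to load cells with cholesterol, whereas oxidized LDL also carries oxidized phospholipids, oxysterols and lipid peroxides. NRF2 is held in the cytosol by KEAP1, which reacts with electrophiles and oxidants, and freed NRF2 switches on enzymes of glutathione synthesis, peroxide removal and heme breakdown. Interferon-stimulated genes are switched on by interferon signalling and interferon regulatory factors.

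The mice were Slc7a7+/+ controls of a myeloid-specific (LysM-Cre) knockout line on the C57Bl/6J background, aged 12 weeks, and their sex was not given in the sources used here. Marrow was grown for 7 days in medium with recombinant macrophage colony-stimulating factor or L-cell conditioned medium, then given 100 µg/mL Ox-LDL, 50 µg/mL Ac-LDL or PBS (control) for 24 h. The particle and its dose therefore differed together and cannot be told apart. Slc7a7-/- macrophages received the same treatments, and their Ox-LDL and Ac-LDL libraries, from 3 other mice, served as a separate measurement of the same contrast. The gene targeted in that line, Slc7a7, a subunit of a cationic amino acid exchanger, was at 11.1 to 29.3 CPM (counts per 1000000 counts of the library, scaled) in the 9 wild type libraries and at 2.22 to 10.9 CPM in the 9 knockout libraries. These ranges did not overlap.

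The 6 libraries held 1043490 to 1603060 counts each, so that 3 counts, the limit used for detection, stood for 1.85 to 2.85 CPM. The noncoding RNA Gm26917 took 6.60 to 10.6% of the counts and mitochondrial genes 1.69 to 2.56%. None of the 10 macrophage markers passed the threshold used here (median log2 fold change -0.15), with Lyz2 at a mean of 25516 CPM with Ac-LDL and 21148 CPM after Ox-LDL. No lymphoid or erythroid marker passed the filter. On the first principal component of the 6 libraries (34.0% of the variance) both libraries of mouse 1 lay apart from the others, and on the second (21.9%) they lay at opposite ends with the other 4 between them. Replicates of a group differed by more than sampling noise, with a chi-square per degree of freedom of 3.83 to 12.7.

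In the fit with the mouse as a term (edgeR quasi-likelihood, Benjamini-Hochberg adjustment over all genes tested), 90 genes passed an adjusted p of 0.05, which is 0.732% of the genes tested. Of these, 46 (0.374%) were higher and 44 (0.358%) lower with Ox-LDL, and 1090 genes had an unadjusted p under 0.05. Here and below, rose and fell describe Ox-LDL relative to Ac-LDL. Such a difference can come from a departure of either group from the control. The count rests on the pairing: without the mouse term edgeR called 1 gene, Cx3cr1, and DESeq2, the tool the study names, called 11. With the mouse term DESeq2 called 52 genes. It gave some of the 90, such as Mmp8, Gsta3 and Acod1, no adjusted p, and these count as not called. The 11 genes called by DESeq2 without the mouse term were all among the 90, and the sign of each of the 90 was the same under all 19 other settings tried. Of the 90, 17 were also called in each of the 17 other settings that kept the mouse term, 10 of them higher and 7 lower. Without the Ac-LDL library of mouse 3 the count fell to 45 genes, and to 51 without any library of that mouse. The plot of calls by setting shows these counts.

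**Figure D1:**
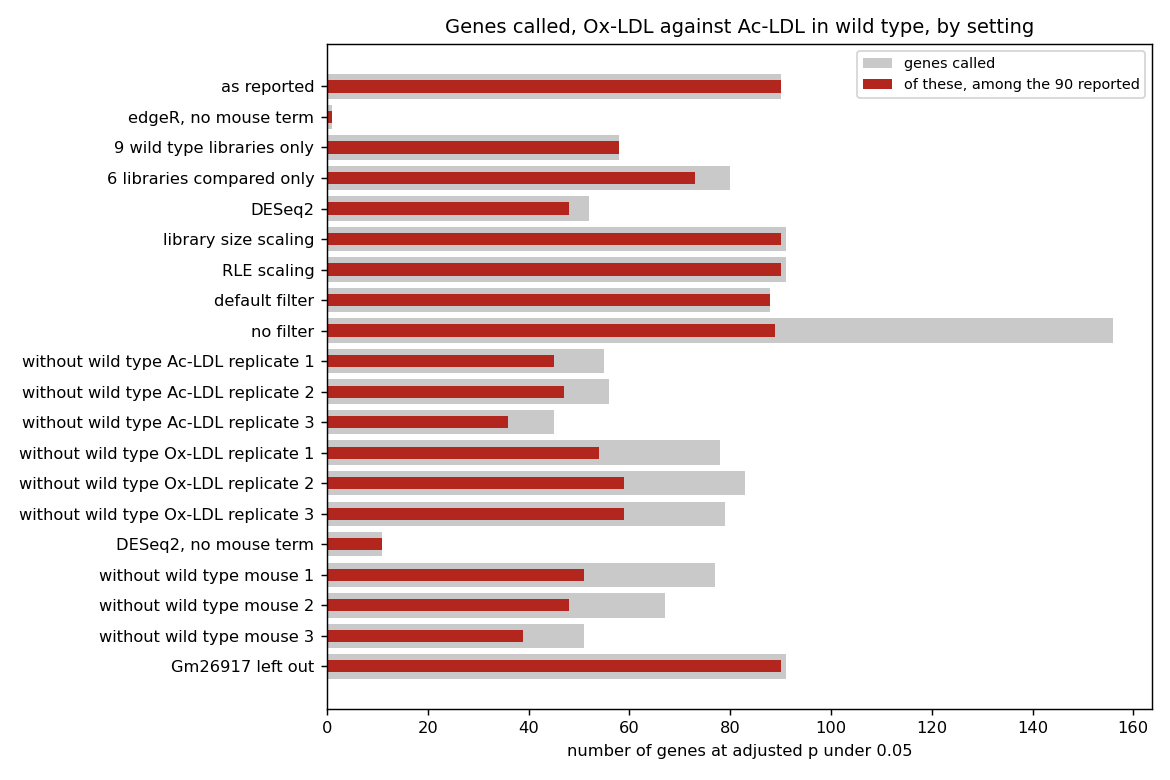
Number of genes at an adjusted p under 0.05 for Ox-LDL against Ac-LDL in wild type (horizontal axis) as reported and under 19 other settings (vertical axis), all with the mouse term unless the label says otherwise; grey bars are genes called and red bars those among the 90 reported. The bars for edgeR and DESeq2 with no mouse term, at 1 and 11 genes, are the shortest.

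The 3 Ox-LDL libraries lay wholly above or wholly below the 3 Ac-LDL libraries for 53 of the 90 genes, against 9.2% of all genes tested. The difference within the mouse had the same sign in all 3 mice for 89 of the 90, against 30.1% of all genes, and the exception was Ifit3. Because the 90 were chosen by a test on these same libraries, both shares describe the calls and are no separate evidence for them. The median log2 fold change was 0.68 for the 46 higher genes and -0.75 for the 44 lower ones, and 70 of the 90 changed by less than 1 on the log2 scale. RNA was measured in bulk, so fewer cells of one kind and less RNA per cell cannot be told apart in any of these values.

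Cd36, the class B scavenger receptor that binds oxidized phospholipids, lies on the minus strand at chr5:17781690-17888801 (GRCm38, GENCODE vM21). Its level was 584, 754 and 599 CPM with Ac-LDL in mice 1, 2 and 3, and 1019, 1425 and 1139 CPM after Ox-LDL. All Ox-LDL libraries lay above all Ac-LDL libraries, and the rise was 0.88 ± 0.10 on the log2 scale (SE, edgeR adjusted p = 7.6e-07). Cd36 was the only 1 of 12 tested genes of the scavenger receptor list that passed the threshold. Cxcl16, also a receptor for oxidized LDL, was placed in the chemokine list and was called lower (-0.62 ± 0.11). Msr1, the class A receptor, differed by 0.13 (95% interval -0.07 to 0.33). The median over the 12 was 0.12, against 0.01 for all genes tested.

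The NRF2 targets gave the largest count of genes that rose. Of 25 tested, 12 rose (48%, against 0.374% of all genes tested) and none fell. Their median log2 fold change was 0.40, against 0.01 for all genes tested. All 25 estimates were above 0 in the reported fit, but Gpx4, at 0.003, was no more than at 0, and between 23 and 25 were above 0 in the other settings, apart from the fit with no filter, where 25 of 26 were. The count of members called was 10 with DESeq2 and the mouse term, 2 (Cat and Srxn1) with DESeq2 without it, and 0 with edgeR without it. Summed over the 25 genes, the level was 6976, 5103 and 5629 CPM with Ac-LDL and 10952, 6848 and 8320 CPM after Ox-LDL. Every mouse rose, although the Ox-LDL library of mouse 2 lay below the Ac-LDL library of mouse 1. Against the control, in comparisons that share libraries with this one, the list median was 0.01 with Ac-LDL and 0.47 with Ox-LDL.

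Among the enzymes that remove peroxides, Cat encodes catalase. Its level was 585, 372 and 502 CPM with Ac-LDL and 1036, 659 and 953 CPM after Ox-LDL, without overlap. The rise was 0.86 ± 0.10 (adjusted p = 8.4e-07). Prdx1, a peroxiredoxin, went from 1164, 774 and 900 CPM to 2761, 1159 and 1670 CPM. The Ac-LDL library of mouse 1 lay just above the Ox-LDL library of mouse 2, while within each mouse Prdx1 was higher with Ox-LDL (0.91 ± 0.11, adjusted p = 3.3e-06). Srxn1, the sulfiredoxin that restores oxidized peroxiredoxins, was at 116, 97.5 and 87.7 CPM with Ac-LDL and at 204, 159 and 153 CPM after Ox-LDL. Its groups did not overlap (0.78 ± 0.11, adjusted p = 3.3e-05). Gpx1, a selenium-dependent glutathione peroxidase that is in none of the lists and was chosen after its values were seen, went the other way. It was at 675, 451 and 541 CPM with Ac-LDL and 426, 260 and 346 CPM after Ox-LDL, a fall of -0.70 ± 0.09 (adjusted p = 2.0e-05).

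Both subunits of the enzyme that starts glutathione synthesis were called higher. Gclm, the modifier subunit of glutamate-cysteine ligase, was at 277, 183 and 216 CPM with Ac-LDL and 412, 271 and 400 CPM after Ox-LDL. Only the Ox-LDL library of mouse 2 lay within the Ac-LDL range, and the rise was 0.68 ± 0.11 (adjusted p = 2.8e-04). Gclc, the catalytic subunit, rose by 0.64 ± 0.15 (adjusted p = 0.028), and was called in 7 of the 19 other settings. Slc7a11, the cystine transporter, had few counts: 8.54, 6.65 and 1.36 CPM with Ac-LDL, the last below 3 counts, and 32.3, 12.3 and 13.7 CPM after Ox-LDL. All Ox-LDL libraries were higher (1.79 ± 0.42, adjusted p = 0.025). Against the control, in comparisons that share libraries with this one, Slc7a11 was at -1.30 ± 0.45 with Ac-LDL and 0.49 ± 0.35 with Ox-LDL. Slc7a11 was no longer called without the Ac-LDL library of mouse 1 or 3 or the Ox-LDL library of mouse 1, with an adjusted p of up to 0.351. It was the only called gene of 16 amino acid transporters tested, and Slc7a7 itself differed by 0.15 ± 0.26.

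Glutathione transferases were led by Gsta3, which was at 20.9, 2.22 and 3.40 CPM with Ac-LDL and 40.3, 14.2 and 39.8 CPM after Ox-LDL. The Ac-LDL library of mouse 1 lay above the Ox-LDL library of mouse 2. The fitted rise was 2.02 ± 0.33 (adjusted p = 3.8e-04, and 0.0639 without the Ac-LDL library of mouse 3). Against the control, in comparisons that share libraries with this one, Gsta3 was at -0.98 with Ac-LDL and 1.05 with Ox-LDL. Gstm1 rose by 0.94 ± 0.14 (adjusted p = 1.9e-04). In the annotation used here 28.8% of the 31-base words in its transcripts also occur in another gene, so counts may have been split between them. Mgst1, the membrane-bound form, rose by 0.78 ± 0.14 (adjusted p = 0.0018), and was chosen after its values were seen. Txnrd1, Gsr and Pgd, which supply reducing power, were at 0.34, 0.40 and 0.34 and did not pass the threshold.

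The short core of the antioxidant response element, TGACNNNGC with N any base, was searched on both strands of the RefSeq promoters (GRCm38.p6, 250 bases before to 50 after each start). It can overlap an AP-1 site, TGACTCA. It was present in 14% of all 27025 genes with a promoter entry, in 17% of the tested genes, in 30.6% of the 36 higher genes with an entry and in 10% of the 30 lower ones. Of the 9 called NRF2 targets with an entry, 3 held it (33.3%). The stretches below, which lie before the start and carry the match in capitals, are from genes that rose; they are given as descriptions of sequence and say nothing of binding. The Prdx1 match contains the AP-1 letters on its other strand, and those of Gclm and Prdx1 are the reverse complement of the core.
Gclm, chr3:122245408-122245446, plus strand: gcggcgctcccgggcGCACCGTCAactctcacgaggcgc
Gsta3, chr1:21240449-21240487, plus strand: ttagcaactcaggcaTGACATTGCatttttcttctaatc
Prdx1, chr4:116685451-116685489, plus strand: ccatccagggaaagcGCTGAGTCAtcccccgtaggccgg

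Of 18 genes of heme and iron handling, 5 rose (27.8%, against 0.374% of all genes tested) and none fell (median 0.22). Hmox1, the heme oxygenase that NRF2 also controls and that stands in both lists, was at 259, 145 and 160 CPM with Ac-LDL and 443, 175 and 202 CPM after Ox-LDL. The rise in mouse 1 was larger than in the others, and the groups overlapped (0.48 ± 0.11, adjusted p = 0.019). Hmox1 was no longer called without the Ac-LDL library of mouse 1 or 3, or without the Ox-LDL library of mouse 1 (adjusted p = 0.462). Blvrb, which reduces biliverdin, rose by 0.45 ± 0.10, the iron exporter Slc40a1 by 0.67 ± 0.14, the ferritin heavy chain Fth1 by 0.43 ± 0.10 and the phagosomal metal transporter Slc11a1 by 0.42 ± 0.10, with adjusted p values of 0.0087 to 0.025. Blvrb, Slc40a1 and Fth1 were also lost in some of the settings without 1 library, with an adjusted p of up to 0.332, 0.227 and 0.347 respectively, Blvrb and Fth1 at their highest without the Ac-LDL library of mouse 3 and Slc40a1 without the Ox-LDL library of mouse 2. Slc11a1 was called in 8 of the 19 other settings and not in all of those without 1 library or 1 mouse. Against the control, in comparisons that share libraries with this one, the list median was 0.04 with Ac-LDL and 0.11 with Ox-LDL. For Fth1 these values were -0.32 and 0.11.

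**Figure D2:**
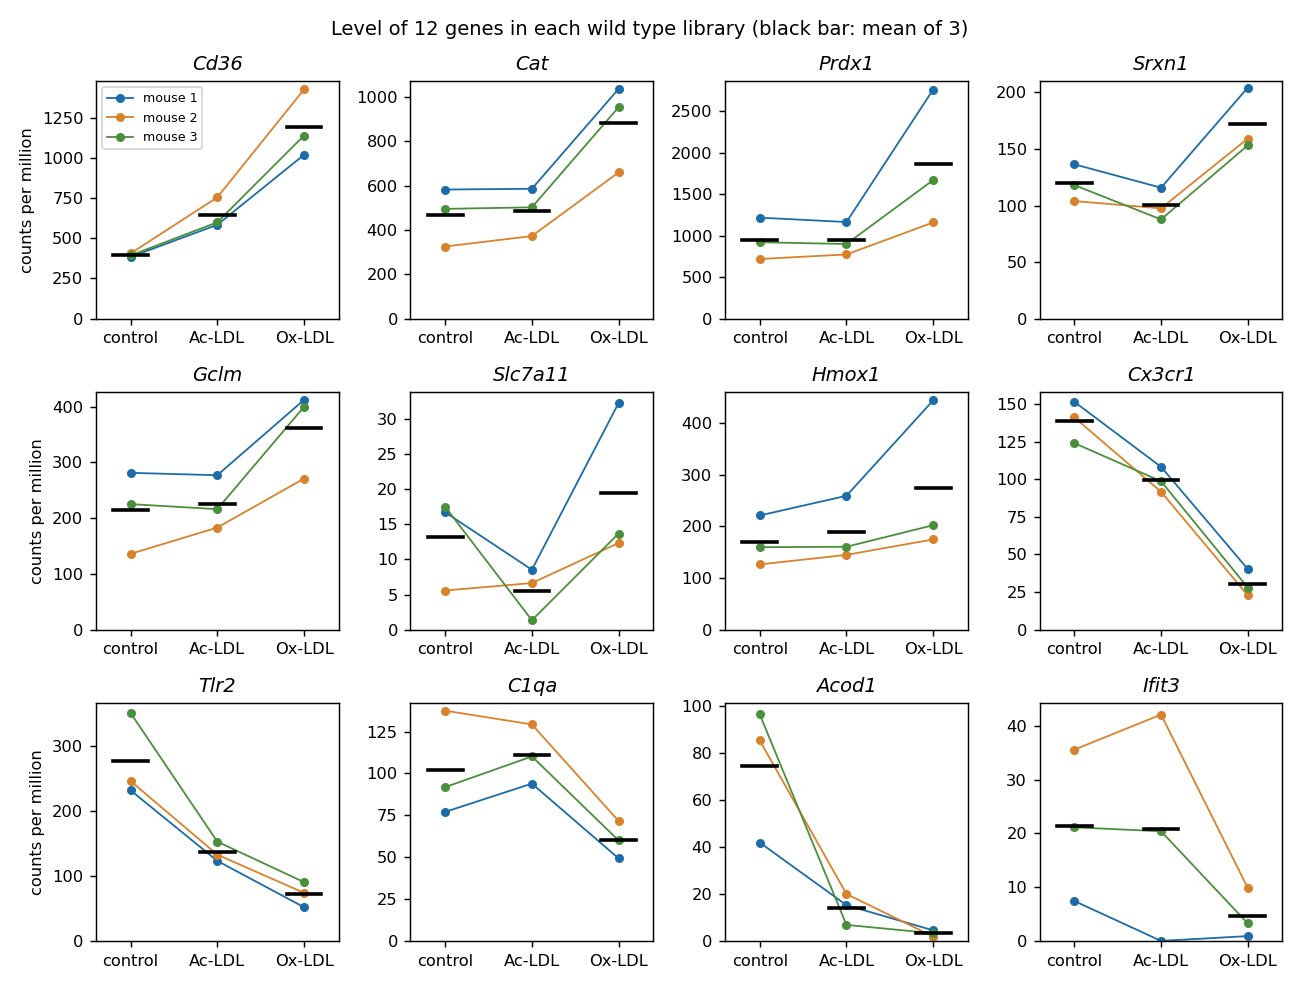
Level (vertical axes, CPM, linear from 0) of 12 genes in control, Ac-LDL and Ox-LDL libraries of wild type macrophages; points of one colour are 1 mouse and black bars are means of 3 libraries. Cd36, Cat, Srxn1, Slc7a11, Cx3cr1, Tlr2, C1qa and Acod1 do not overlap between Ac-LDL and Ox-LDL, and Ifit3 is near 0 with both in mouse 1.

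Cx3cr1, the receptor for fractalkine that marks patrolling monocytes and many resident macrophages, was called under every setting. The gene lies on the minus strand at chr9:119901616-120069879 (GRCm38, GENCODE vM21). Its level was 108, 91.6 and 98.6 CPM with Ac-LDL and 40.3, 22.8 and 28.0 CPM after Ox-LDL. The groups were well apart, and the fall was -1.74 ± 0.19 on the log2 scale (adjusted p = 7.6e-07). Its control libraries were at a mean of 139 CPM.

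Several receptors and complement genes outside the lists also fell, and were chosen after their values were seen. Tlr2, which senses bacterial lipoproteins, was at 123, 133 and 153 CPM with Ac-LDL and 52.0, 74.1 and 90.6 CPM after Ox-LDL, without overlap (-0.91 ± 0.12, adjusted p = 1.7e-05). Clec12a, an inhibitory C-type lectin, fell by 0.76 on the log2 scale. The chains of complement C1q, C1qa, C1qb and C1qc, fell together at -0.88 ± 0.14, -0.62 ± 0.11 and -0.48 ± 0.10, and none of them overlapped between the groups. C3, the central complement component, fell with groups that overlapped (-0.76 ± 0.17), and was called in 11 of the 19 other settings. In the chemokine list the membrane-bound Cxcl16, also a receptor for oxidized LDL, was the 1 of 11 that passed the threshold (-0.62 ± 0.11).

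The interferon-stimulated genes were the list with the lowest median, -0.69 over 35 tested. Of these estimates 33 were below 0, and the median over all genes tested was 0.01. None was called higher and 7 were called lower (20%, against 0.358% of all genes tested), among them Ifit2, Ifit3, Rsad2, Oas1a, Ifi27l2a and Parp14. This count depended on the setting more than that of the NRF2 targets: 2 were called with DESeq2 and the mouse term, none without the mouse term in either tool, 3 without the Ac-LDL library of mouse 2 and 2 without that of mouse 3, 4 and 3 without the Ox-LDL library of mouse 2 and 3, and 2 and 1 without mouse 2 and 3 altogether. With the mouse term DESeq2 gave no adjusted p for Ifit2, Ifit3, Rsad2, Oas1a and Ifi27l2a, so it did not judge them. Levels differed widely between mice, and the summed level was 552, 1746 and 968 CPM with Ac-LDL and 398, 1225 and 650 CPM after Ox-LDL. The groups overlapped, mouse 1 had the lowest level with each particle, and every mouse was lower with Ox-LDL.

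Rsad2, the antiviral protein viperin, was at 1.90, 44.3 and 9.52 CPM with Ac-LDL and 0.896, 11.1 and 5.22 CPM after Ox-LDL. Both libraries of mouse 1 were below 3 counts, and the fitted change was -1.60 ± 0.35 (adjusted p = 0.018; 0.725 without the Ac-LDL library of mouse 2). Ifit3 was at 0, 42.1 and 20.4 CPM with Ac-LDL and 0.896, 9.88 and 3.26 CPM after Ox-LDL, a fitted -2.12 ± 0.42 (adjusted p = 0.0056; 0.191 without the Ac-LDL library of mouse 2) that rests on mice 2 and 3. It shares 61.8% of its 31-base words with Ifit3b, and Oas1a shares 68.7% with Oas1g. Parp14, a mono-ADP-ribosyltransferase, was at 118, 337 and 217 CPM with Ac-LDL and 82.4, 233 and 137 CPM after Ox-LDL. It fell in each mouse and is better counted (-0.57 ± 0.12, adjusted p = 0.011; 0.114 without the Ac-LDL library of mouse 2).

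A short interferon regulatory factor site, GAAANNGAA, was searched after the values were seen. It was present in 9.76% of genes with a promoter entry, in 72.0% of the 25 interferon-stimulated genes with one, in 23.3% of the 30 lower genes and in 8.33% of the 36 higher ones. The list holds genes known to respond to these factors, so its share describes the list and not the response. Stretches of 3 of the genes that fell follow, all before the start, with the match in capitals; in Oas1a a pair of matches overlap, and those of Ifit3 and Rsad2 are the reverse complement.
Ifit3, chr19:34583359-34583450, plus strand: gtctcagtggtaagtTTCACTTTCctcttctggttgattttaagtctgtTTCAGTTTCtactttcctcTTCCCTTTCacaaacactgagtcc
Rsad2, chr12:26456548-26456586, minus strand: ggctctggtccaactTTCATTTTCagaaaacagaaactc
Oas1a, chr5:120907526-120907560, minus strand: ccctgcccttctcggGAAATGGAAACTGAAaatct

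In the list of inflammatory mediators Acod1, which makes itaconate, was the 1 of 17 called. It was at 15.2, 19.9 and 6.80 CPM with Ac-LDL and 4.48, 1.85 and 3.26 CPM after Ox-LDL, with 1 Ox-LDL library at the limit of 3 counts (-2.15 ± 0.47, adjusted p = 0.015). Acod1 was not called without the Ac-LDL library of mouse 1 or 2 or the Ox-LDL library of mouse 2, with an adjusted p of up to 0.157. Relative to the control, whose libraries were at a mean of 74.4 CPM, both particles were lower, and the values are given side by side because the comparisons share libraries: -2.45 ± 0.26 with Ac-LDL and -4.60 ± 0.34 with Ox-LDL.

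**Figure D3:**
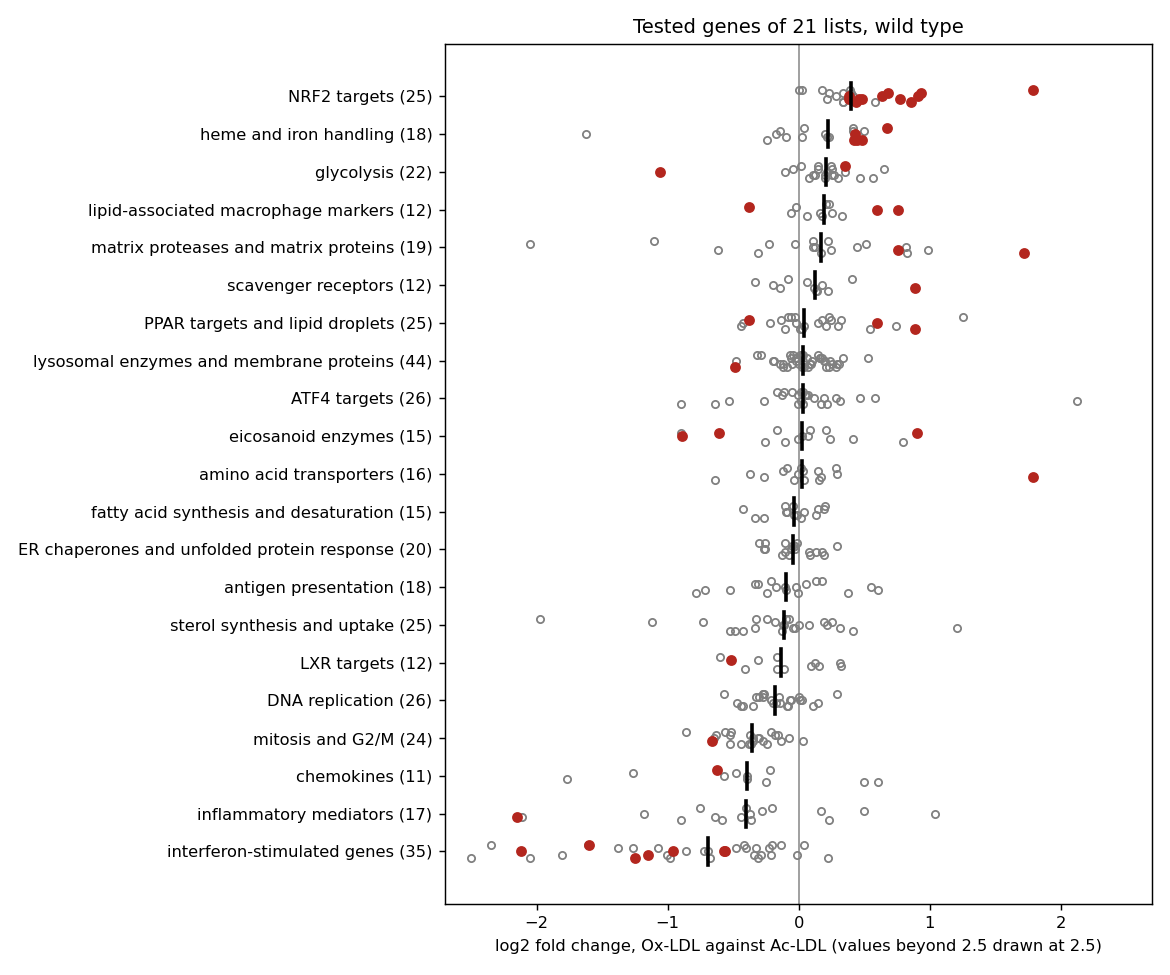
Log2 fold change, Ox-LDL against Ac-LDL in wild type (horizontal axis), of each tested gene of 21 lists (vertical axis, number tested in brackets); filled red points are called genes, open points are not, and black bars are medians. The medians run from -0.69 for interferon-stimulated genes to 0.40 for NRF2 targets.

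Genes of lipid use moved in both directions. Pla2g7, the platelet-activating factor acetylhydrolase that cleaves oxidized phospholipids, was at 251, 196 and 379 CPM with Ac-LDL and 411, 459 and 639 CPM after Ox-LDL. The groups did not overlap (0.90 ± 0.11, adjusted p = 1.8e-06). In the same list of 15 eicosanoid enzymes Ptgs1, the constitutive cyclooxygenase, fell by 0.89 on the log2 scale and Hpgd, which breaks prostaglandins down, by 0.61. Hpgd was not called without the Ac-LDL library of mouse 1 or 3 or the Ox-LDL library of mouse 2 or 3 (adjusted p up to 0.365), nor by DESeq2 with the mouse term (0.102), and Ptgs1 was not called when any 1 mouse was left out (up to 0.0666). Of 25 PPAR targets and lipid droplet genes, Cd36 and the fatty acid binding protein Fabp5 (0.60 ± 0.12) rose and lipoprotein lipase, Lpl, fell (-0.38 ± 0.09). Fabp5 was not called without the Ac-LDL library of mouse 3 or the Ox-LDL library of mouse 1 (adjusted p up to 0.166), and Lpl not without either library of mouse 1 or the Ac-LDL library of mouse 3 (up to 0.18). Pltp, the phospholipid transfer protein, fell by 0.51 and was the 1 of 12 LXR targets called. Pltp was not called without the Ac-LDL library of mouse 1 or 2 or the Ox-LDL library of mouse 3 (adjusted p up to 0.159). Abca1 was at -0.41 ± 0.15 and Abcg1 at 0.10 ± 0.12, neither past the threshold. Against the control, in comparisons that share libraries with this one, Lpl was at 0.45 with Ac-LDL and 0.07 with Ox-LDL. In the same order Hpgd was at 0.94 and 0.33, Fabp5 at -0.56 and 0.03, and Pltp at 0.25 and -0.27. Cd36 was at 0.71 and 1.59, Pla2g7 at -0.36 and 0.54, and Ptgs1 at 0.11 and -0.78.

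No gene of 25 for sterol synthesis and uptake was called (median -0.11), nor any of 15 for fatty acid synthesis (-0.03). Against the control, in comparisons that share libraries with this one, the median of the sterol list was -1.82 with Ac-LDL and -1.92 with Ox-LDL, and that of the fatty acid list -0.59 and -0.60. None of 26 ATF4 targets, 20 endoplasmic reticulum chaperones, 18 antigen presentation genes or 26 DNA replication genes passed the threshold. Of the 12 markers of lipid-associated macrophages Fabp5 and the elastase Mmp12 (0.76 ± 0.16) rose and Lpl fell, while Trem2 differed by 0.06 ± 0.09. Mmp12 was not called without either library of mouse 1 or the Ac-LDL library of mouse 3 (adjusted p up to 0.153).

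Of 24 mitotic genes 1 fell, the spindle protein Prc1 (-0.66 ± 0.16). In this list 23 estimates were below 0 with a median of -0.35, against 0.01 for all genes tested. Their summed level was 2045, 1992 and 1829 CPM with Ac-LDL and 1547, 1590 and 1367 CPM after Ox-LDL, which do not overlap. The control libraries ran from 889 to 2163 CPM, a range that spans both groups. Against the control, in comparisons that share libraries with this one, the list median was 0.28 with Ac-LDL and -0.06 with Ox-LDL. For Prc1 these values were 0.51 and -0.15. Prc1 was not called without either library of mouse 1 or the Ac-LDL library of mouse 3 (adjusted p up to 0.419), nor by DESeq2 with the mouse term (0.104). Among 22 genes of glycolysis Pkm (0.35 ± 0.08) rose and the transporter Slc2a6 (-1.06 ± 0.21) fell, and 19 estimates were above 0 (median 0.21). Pkm was called in none of the 6 settings without 1 library (adjusted p up to 0.267), and Slc2a6 in all but that without the Ac-LDL library of mouse 1 (0.0527). Of 44 lysosomal genes 1 passed the threshold, and their median was 0.03.

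Mmp8, the neutrophil collagenase, and Mmp12 were the 2 called of 19 matrix genes. Mmp8 was at 19.0, 13.3 and 23.8 CPM with Ac-LDL and 77.1, 40.7 and 69.1 CPM after Ox-LDL, without overlap (1.72 ± 0.22, adjusted p = 6.1e-06). Of 10 neutrophil markers 6 were tested and none was called. Their summed level was 216, 165 and 78.9 CPM with Ac-LDL and 252, 142 and 183 CPM after Ox-LDL, higher in mice 1 and 3 and lower in mouse 2, and their part in the Mmp8 result was not tested. Other large rises outside the lists were Clec4n, the lectin Dectin-2 (1.42 ± 0.26), and the channel Panx1 (0.89 ± 0.22). Against the control Clec4n was at -0.95 with Ac-LDL and 0.47 with Ox-LDL, and Panx1 at -0.02 and 0.88. Among the largest falls were the collagen chain Col4a5 (-1.18 ± 0.18), Esco2, which acts in sister chromatid cohesion (-1.27 ± 0.29), Cd207, or langerin (-1.13 ± 0.22), and the inhibitory receptor Pilra (-1.65 ± 0.40). Of these Clec4n and Col4a5 were called in all 6 settings without 1 library, Cd207 in 5, and Panx1, Esco2 and Pilra in 2, with an adjusted p of up to 0.442, 0.234 and 0.397.

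Some calls rest on genes that share sequence or few counts. Of the 90, 11 share over 20% of their 31-base words with another gene of GENCODE vM21, a later release of the same GRCm38 build than the authors used. Cpne1 (0, 0 and 2.04 CPM with Ac-LDL, 6.27, 8.64 and 21.5 CPM after Ox-LDL) rose while Gm28036, which overlaps it on the same strand of chromosome 2 and holds 76.3% of its words, fell by 1.09 on the log2 scale. Their separate changes are therefore uncertain, and neither was called in all 6 settings without 1 library. Gm37988, which shares 72.0% of its words with Lypla1, had 0 counts in all 3 Ac-LDL libraries and 12.5, 3.09 and 17.6 CPM after Ox-LDL, at least 4.68-fold higher against a limit of 3 counts per library. It was not called without the Ac-LDL library of mouse 3 (adjusted p = 0.194). Gm5431 (-1.02 ± 0.25) shares 36.7% with 9930111J21Rik1 and was called in 1 of the 6 settings without 1 library, that without the Ox-LDL library of mouse 3. Bmp2, chosen after its values were seen, had 0, 0.617 and 0 CPM after Ox-LDL.

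The knockout libraries gave a measurement of the same contrast in other mice. It shares the gene filter, the scaling, the estimate of spread and the unequal doses of the particles. The same sign in both genotypes therefore cannot tell the particle from its dose. There 169 genes were called (1.38% of those tested), 62 higher and 107 lower. Of the 90 wild type calls 89 had the same sign in the knockout (98.9%), against 58.3% of all genes tested, and 57 were called in both with the same sign, which is 63.3% of the wild type calls and 33.7% of the knockout calls. The median knockout log2 fold change was 0.58 for the 46 higher genes and -0.62 for the 44 lower ones. Cd36 rose by 1.0 in the knockout, Cat by 0.76, Prdx1 by 0.84 and Hmox1 by 0.62, and Cx3cr1 changed by -1.64. Among NRF2 targets 11 rose and none fell there, and among interferon-stimulated genes 7 fell and none rose.

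**Figure D4:**
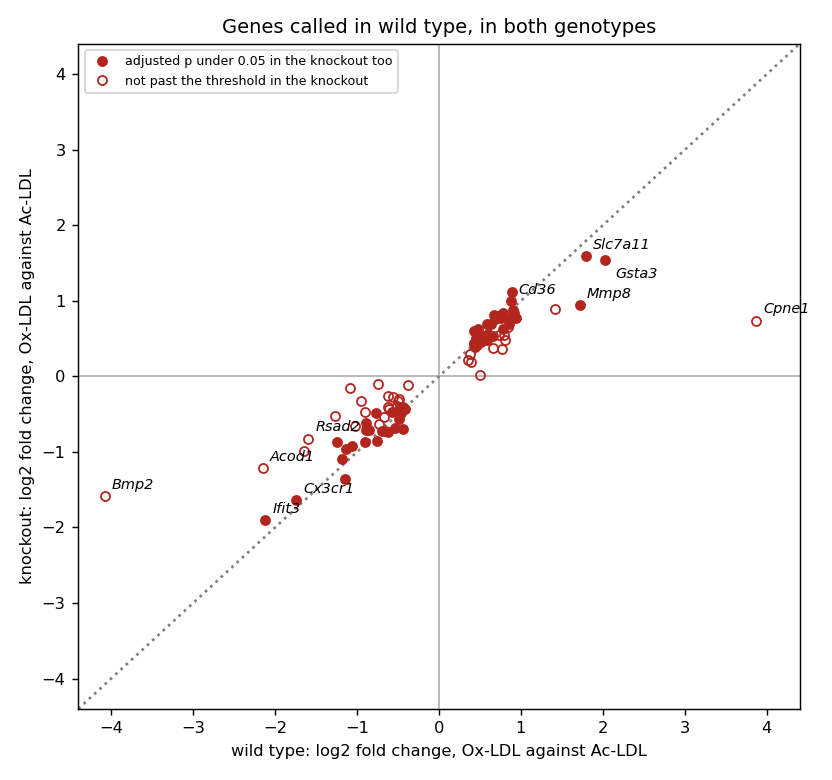
Log2 fold change, Ox-LDL against Ac-LDL, in wild type (horizontal axis) and knockout (vertical axis) macrophages for 89 of the genes called in wild type; filled points passed an adjusted p of 0.05 in the knockout too, open points did not, and the dotted line marks equal values. All points drawn have the same sign in both genotypes, and Gm37988, which did not, is left out.

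A test of the difference between genotypes called 1 gene, 0.00814% of those tested, and 459 had an unadjusted p under 0.05. That gene was Gm37988. DESeq2 with the mouse term called 8 genes for this difference, of which Gm37988 was not one. The interferon-stimulated genes Rsad2 and Oas1a and the mediator Acod1 passed the threshold in wild type and not in the knockout (-0.82, -0.33 and -1.21), and none of these differences between genotypes passed the test. Among the sterol genes 7 were called lower in the knockout (median of the list -0.55) and none in wild type; whether the list as a whole differed between genotypes was not tested.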

How the data were processed

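Gene-level estimated counts, 31053 genes in 18 libraries, were used as deposited. Per the labels and the study's methods, the authors prepared stranded total RNA libraries, sequenced them single-end, trimmed reads with Trim Galore within nf-core, aligned them with STAR to mm10 and quantified with Salmon on Ensembl release 93; versions of these are not given in the sources used here. The estimated counts were rounded to whole numbers. All 18 libraries were fitted in edgeR 4.0.16 (R 4.3.3) with TMM scaling and filterByExpr (minimum count 2, minimum total 10, after the study's filter), with terms for 6 mice and for Ac-LDL and Ox-LDL within each genotype, and tested with the quasi-likelihood test (8 residual degrees of freedom, adjusted p under 0.05). Values are fitted log2 fold changes ± SE, and CPM are TMM-scaled counts per 1000000. Total counts were 1043490 to 1603060 in the 6 libraries compared, and limits of 3 counts cover counting error only.

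Libraries were paired by the ID number in the column names, read as the animal though no label says so. Deviations from the group means correlated at 0.11 to 0.293 within a mouse and -0.263 to -0.00273 between mice. Deviations in a group sum to 0 for each gene, so positive values within mice push those between mice below 0. The contrast between these ranges is therefore partly built in. The study states DESeq2 and no such term, and the mouse term was chosen knowing that it raised the number of calls in these data. DESeq2 1.42.0, with and without the term, other scalings, filters and library sets, and leaving out each library or mouse were alternatives; the leave-outs of mice, DESeq2 without the term and the removal of Gm26917 were chosen after seeing the data. The scripts were tested on simulated data, where edgeR's share of false calls exceeded the nominal rate when each gene had its own spread, so calls near the threshold are less certain than their adjusted p.

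Named genes were the 12 largest rises and 12 largest falls among called genes that averaged 5 CPM or more and had the same sign in 3 mice, up to 4 called genes per list, or the gene with the smallest p where none was called, and 8 set genes; any other gene named was chosen after its values were seen. The comparison, the lists and the genes were chosen with earlier results of these data known. Coordinates are from GENCODE vM21 (GRCm38) and promoters from RefSeq (GRCm38.p6), read with Python 3.11.15 and pandas 2.3.3. Shared sequence was measured as 31-base words of transcripts. Results of some genes are not reported here.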

Additional observations from a re-analysis of the deposited data

Results flagged for a closer look

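Gm37988 was singled out because its Ox-LDL against Ac-LDL difference differed between genotypes by the test of that difference (edgeR, wild type minus knockout log2 value of 12.93, adjusted p = 0.0096). It had 0 counts in the 3 wild type Ac-LDL libraries and 5 to 27 in the Ox-LDL ones, while in the knockout its mean was 5.51 CPM with Ac-LDL and 0 with Ox-LDL. With a group at 0 on each side the fitted value depends on the prior count and is no measure of size. In the annotation used here the gene overlaps Lypla1 and Tcea1 on the same strand of chromosome 1, and 93.6% of its 31-base words occur in another gene; the part of that sharing in the difference was not tested. The gene was not among those called for the difference with DESeq2, with the stricter filter, without the mouse term, or without the Ac-LDL library or any library of mouse 3.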

How the results depend on the processing

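All 90 wild type calls kept their sign in the 19 other settings. The count of calls stayed within 1.5 times under library size (91) or RLE scaling (91), the stricter filter (88), the 6 libraries alone (80), without Gm26917 (91), without mouse 1 (77) or mouse 2 (67), and without the Ox-LDL library of mouse 1, 2 or 3 (78, 83 and 79), and moved further under the others. The replicate block decided most calls: without it edgeR called 1 gene (0 higher, 1 lower), 8 in the knockout and 0 for the difference between genotypes, and DESeq2 11 (5 higher, 6 lower), 17 and 0. With the block DESeq2 called 52 (29 higher, 23 lower), 95 in the knockout and 8 for the difference. The 9 wild type libraries alone gave 58 calls, 28 of them higher. With no filter 156 genes were called (73 higher, 83 lower), 269 in the knockout and 20 for the difference, which the stricter filter brought to 0. Leaving out 1 library gave 45 to 83 calls, 15 to 46 higher and 28 to 43 lower, 178 to 238 in the knockout, and 0 to 6 for the difference. Without mouse 1 the difference gave 4 calls and the knockout 255, without mouse 2 the difference gave 3 and 27 wild type genes were lower, and without mouse 3 there were 51 wild type calls (23 higher, 28 lower). NRF2 targets called ranged from 0 to 13 and interferon-stimulated genes from 0 to 8 over the settings. Of the 42 named genes called, 12 were called in all 6 settings without 1 library. The cause of these shifts was not tested; leave-outs also have fewer samples. At the depth of these libraries genes near 3 counts are limited by depth.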
